A study of Mus musculus with 13 samples.

Results

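The genes described here are matrix metalloproteinases (Mmp genes) and tissue inhibitors of metalloproteinases (Timp genes), named by symbol and read from the gene counts of every library. All 10 listed genes were found among the 19838 genes of each count table: 7 metalloproteinases (Mmp2, Mmp3, Mmp9, Mmp11, Mmp14, Mmp15 and Mmp19) and 3 inhibitors (Timp2, Timp3 and Timp4). The libraries came from aorta and from gastrocnemius, a calf muscle, of mice aged 88 weeks in an FVBxC57BL/6 background. The mice called dNdK carried GFP-FOXM1dNdK tg/+ and Rosa26-rtTA tg/+, where GFP-FOXM1dNdK is a GFP-tagged transgenic form of FOXM1, a transcription factor of the cell cycle. The mice called Rosa26 were GFP-FOXM1dNdK-/- and also carried Rosa26-rtTA tg/+, the gene for the doxycycline-controlled transactivator, so both genotypes held rtTA. The labels name no doxycycline treatment, and they name no promoter for the transgene. The groups were aorta dNdK (2 libraries), aorta Rosa26 (4), gastrocnemius dNdK (3) and gastrocnemius Rosa26 (4), and a library is called below by its group and number. Complementary DNA was amplified with primers against mouse transcripts and read on an Ion Torrent sequencer.

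Matrix metalloproteinases are zinc-dependent enzymes that are made as inactive proenzymes and cut collagens, elastin, laminins and other proteins of the extracellular matrix once the propeptide is removed. The inhibitors bind the active enzymes, and TIMP2 also forms a bridge between MMP14 and the MMP2 proenzyme at the cell surface, through which MMP2 is activated. In arteries these enzymes are known for the turnover of elastin and collagen, and in skeletal muscle for the remodelling of the matrix around fibres.

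Each gene is read through an amplicon with an efficiency of its own, so levels can be set against each other between libraries but not between genes. The genes lie apart in the genome (build GRCm38.p6): Mmp2 at chr8:92827290-92853421, Mmp9 at chr2:164940326-164955850, Mmp3 at chr9:7445822-7455975, Mmp14 at chr14:54431598-54442456 and Mmp15 at chr8:95352296-95374293, all on the plus strand and with no other annotated gene over them. Mmp11 (chr10:75923221-75932502, minus strand) shares exonic bases with Chchd10 on the opposite strand. Mmp19 (chr10:128790910-128800827, plus strand) shares exonic bases with Tmem198b and Gm47093 on the opposite strand. Timp3 (chr10:86300412-86349505, plus strand) overlaps exons of Syn3, Timp4 (chr6:115244444-115252205, minus strand) overlaps exons of Syn2, and Timp2 (chr11:118301061-118355411, minus strand) overlaps Cep295nl outside exons. The counts used were summed over both strands, so within shared exonic bases the strand did not separate reads of a gene from reads of its partner. Whether such reads were counted for either gene or left unassigned was not examined.

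RefSeq gave the promoter of 7 of the 10 genes on GRCm38.p6 (Mmp3, Mmp11, Mmp14, Mmp15, Timp2, Timp3 and Timp4). The 250 bases before the annotated start are shown, 5′ to 3′ on the gene's strand, for Mmp3, whose counts were raised in a single muscle library, and for Timp3 and Timp4, whose levels split the libraries within a tissue. Capitals mark matches to TATAAA (the TATA box) and TGANTCA (the AP-1 site, bound by Fos and Jun proteins), searched on both strands, and the motifs share no bases.
Mmp3: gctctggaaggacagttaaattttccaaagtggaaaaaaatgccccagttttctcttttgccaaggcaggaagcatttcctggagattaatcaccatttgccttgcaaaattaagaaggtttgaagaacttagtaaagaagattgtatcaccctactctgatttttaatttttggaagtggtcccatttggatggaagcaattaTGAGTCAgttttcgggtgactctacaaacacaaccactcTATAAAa
Timp3: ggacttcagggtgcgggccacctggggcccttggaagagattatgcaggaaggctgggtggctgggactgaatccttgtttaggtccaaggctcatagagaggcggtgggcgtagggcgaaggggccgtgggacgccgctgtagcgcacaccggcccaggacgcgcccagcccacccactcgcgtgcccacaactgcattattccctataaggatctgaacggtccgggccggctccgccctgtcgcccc
Timp4: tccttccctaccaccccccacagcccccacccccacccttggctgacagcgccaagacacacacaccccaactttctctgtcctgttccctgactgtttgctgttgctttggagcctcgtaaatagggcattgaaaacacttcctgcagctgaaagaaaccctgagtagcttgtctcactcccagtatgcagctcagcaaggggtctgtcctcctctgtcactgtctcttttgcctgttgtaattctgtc
The windows are chr9:7445572-7445821 (plus strand) for Mmp3, chr10:86300162-86300411 (plus strand) for Timp3 and chr6:115252206-115252455 (minus strand) for Timp4. Mmp3 alone among the 7 promoters matched TATAAA, 7 bases before the start, and it alone matched TGANTCA, 46 bases before the start. Of all 32851 promoter windows of 250 bases, 12.4% matched TATAAA and 6.75% matched TGANTCA. CpG dinucleotides numbered 1 in the Mmp3 window, 2 in Timp4, 10 in Mmp14, 14 each in Mmp11 and Mmp15, 18 in Timp3 and 21 in Timp2, beside a median of 6 over all windows.

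The libraries held 3919526 to 13683952 gene counts. Levels are given as scaled CPM, that is, counts relative to library size after scaling all 13 libraries by TMM, a method that takes most genes as equal. The detection limit was set at 3 counts, or 0.165 to 0.641 scaled CPM. Foxm1 itself had 2 to 5 counts in aorta dNdK libraries and 2 to 24 in aorta Rosa26 libraries, and 0 to 3 in gastrocnemius dNdK libraries and 1 to 3 in gastrocnemius Rosa26 libraries. The labels do not say whether its amplicon reads the transgene. The summed level of 7 adipocyte markers was 11860 to 18610 scaled CPM in the 6 aorta libraries, and Ucp1, which marks brown fat, was at 3765 to 6999 scaled CPM in them. The 7 smooth muscle markers summed to 270 to 459 scaled CPM in aorta and 5083 to 8135 scaled CPM in gastrocnemius, where Des, which skeletal muscle also makes, held 4843 to 7829 scaled CPM, against 67.7 to 165 scaled CPM in aorta. Of these markers, Tagln was at 0 to 0.055 scaled CPM in aorta and 0 to 0.158 scaled CPM in gastrocnemius, and Myh11 stood at 51.6 to 83.1 scaled CPM in aorta and 30.3 to 85.7 scaled CPM in gastrocnemius. In 3 aorta libraries (dNdK 2, Rosa26 1 and Rosa26 2) the heart gene Myh6 was at 268 to 654 scaled CPM, against 0 to 1.47 scaled CPM in the other 3. The library gastrocnemius dNdK 3 held 10950 scaled CPM of the 7 adipocyte markers, against 568 to 1329 scaled CPM in the other 6 gastrocnemius libraries. In bulk tissue, fewer cells of a type and less RNA per cell cannot be told apart.

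Mmp19 and Mmp9 were the members that passed the edgeR quasi-likelihood test as higher in aorta than in gastrocnemius of Rosa26 mice, 9.86-fold and 4.07-fold, and Mmp2 passed as lower under TMM scaling. Estimates were higher in aorta for 6 of the 10 members, Timp3 and Timp4 among them. Between genotypes, no member passed that test in aorta or in gastrocnemius. Timp4, Mmp19 and Mmp3 each had a library far above the rest of its group, and Timp3 split the aorta libraries into a low and a high set. Dixon's outlier test, run for each member in the groups of 4 libraries, gave 0 flags in 20 cases. It was not run in the smaller dNdK groups, which hold the high libraries of Timp4 and Mmp19.

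**Figure D1:**
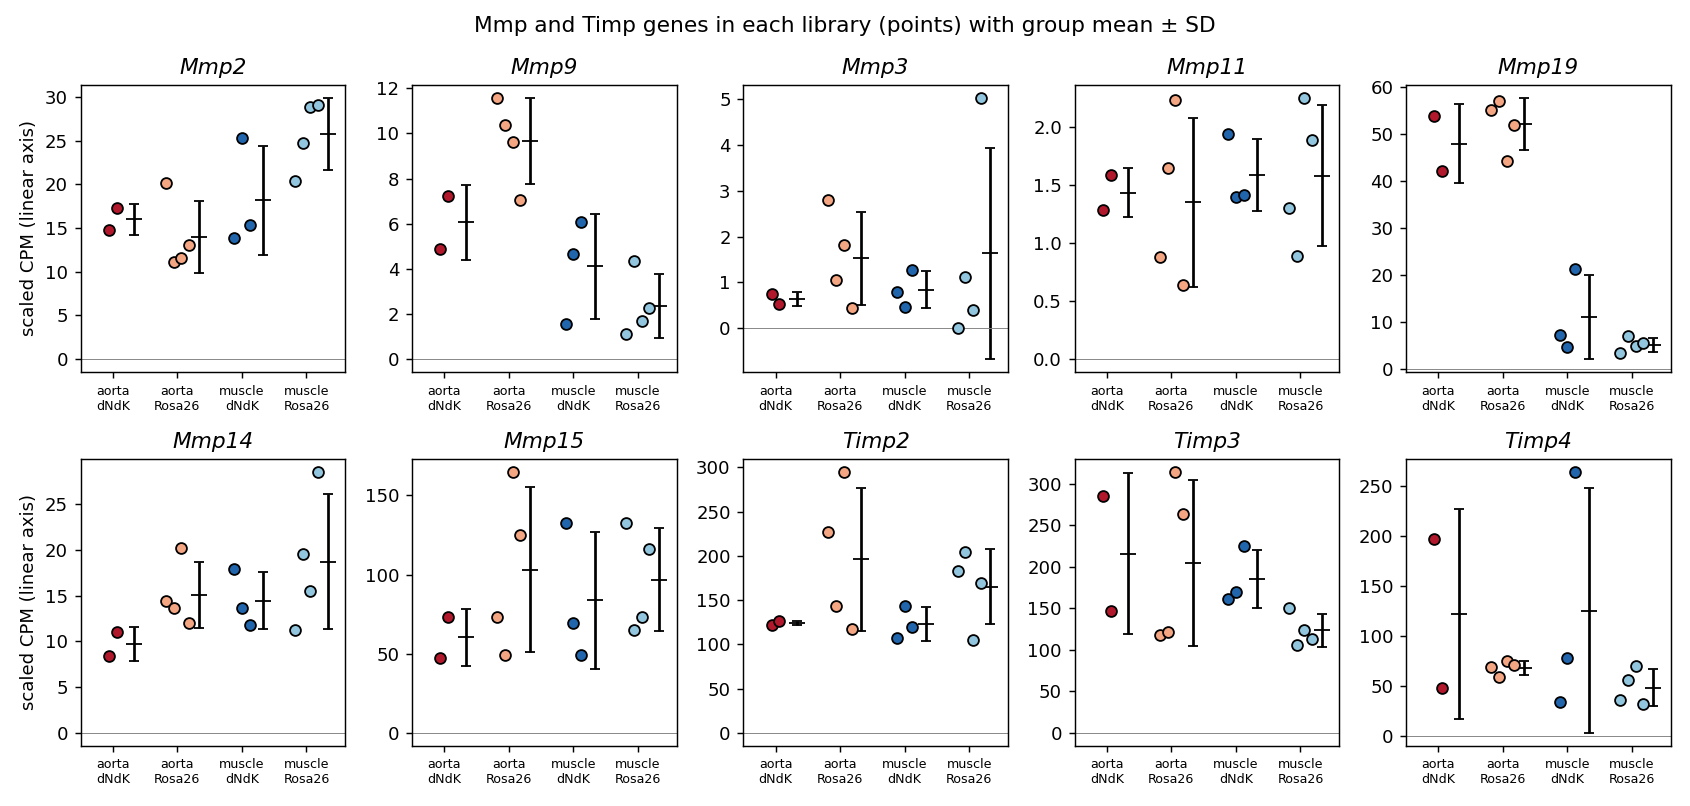
Level of each of the 10 genes (scaled CPM, linear axis, a scale of its own for each gene) in every library, by group; points are libraries, and the bar beside them is the group mean ± SD (n = 2, 4, 3 and 4 from left to right). Mmp19 separates aorta (42.1 to 57.0) from gastrocnemius (3.36 to 21.3), and Timp4 has 1 high library in aorta dNdK (197) and 1 in gastrocnemius dNdK (264).

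Mmp2 encodes gelatinase A, a secreted protease of denatured collagen and of type IV collagen. It stood at 14.7 and 17.3 scaled CPM in aorta dNdK libraries, against 20.1, 11.2, 11.6 and 13.04 scaled CPM in aorta Rosa26 libraries. In gastrocnemius it stood at 13.8, 25.4 and 15.4 scaled CPM in dNdK libraries, against 20.4, 24.8, 28.9 and 29.1 scaled CPM in Rosa26 libraries. The dNdK and Rosa26 libraries overlapped in both tissues, while the 4 aorta Rosa26 libraries all lay below the 4 gastrocnemius Rosa26 libraries. The log2 fold change of dNdK over Rosa26 was 0.19 (SE 0.31) in aorta and −0.49 (SE 0.27) in gastrocnemius, with adjusted p of 0.890 and 0.708 by the edgeR quasi-likelihood test. In Rosa26 mice the log2 fold change of aorta over gastrocnemius was −0.89 (SE 0.25, edgeR quasi-likelihood adjusted p = 0.0112). Scaled to library size alone, without a correction for composition, it was −0.01 (adjusted p = 0.973). That scaling moved all genes alike, with the median over all genes at 0.96 by library size and at 0.08 under TMM, and Mmp2 lay at −0.97 relative to the median under each. In dNdK mice the log2 fold change of aorta over gastrocnemius was −0.18 (SE 0.36, adjusted p = 0.763).

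Mmp9 encodes gelatinase B, a secreted protease that neutrophils and macrophages release. Its levels were 4.89 and 7.24 scaled CPM in aorta dNdK libraries, against 11.6, 10.4, 9.63 and 7.05 scaled CPM in aorta Rosa26 libraries. Gastrocnemius held 1.56, 4.67 and 6.07 scaled CPM in dNdK libraries, against 1.12, 4.33, 1.67 and 2.26 scaled CPM in Rosa26 libraries. Every aorta Rosa26 library lay above every gastrocnemius Rosa26 library, and the aorta dNdK libraries overlapped with the gastrocnemius dNdK libraries. Mmp9 averaged 9.66 ± 1.91 scaled CPM in aorta and 2.35 ± 1.40 scaled CPM in gastrocnemius of Rosa26 mice (SD, n = 4 each). The log2 fold change of aorta over gastrocnemius was 2.02 (SE 0.40, adjusted p = 0.00157) in Rosa26 mice and 0.55 (SE 0.59, adjusted p = 0.550) in dNdK mice. Between genotypes, the log2 fold change of dNdK over Rosa26 was −0.68 (SE 0.34, adjusted p = 0.757) in aorta and 0.83 (SE 0.57, adjusted p = 0.758) in gastrocnemius. The difference between these genotype effects, −1.49 (SE 0.72), did not pass the edgeR interaction test (adjusted p = 0.583).

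The 5 neutrophil markers summed to 2.72 to 6.91 scaled CPM in aorta dNdK and 3.07 to 35.9 scaled CPM in aorta Rosa26. In gastrocnemius they summed to 0.468 to 4.48 scaled CPM in dNdK and 0 to 12.1 scaled CPM in Rosa26. Their defining gene Ly6g was at 0 to 0.237 scaled CPM in all 13 libraries, at or below the detection limit. Such values cannot tell few neutrophils from an amplicon that reads poorly. The 8 macrophage markers summed to 277 to 550 scaled CPM in aorta and 84.0 to 198 scaled CPM in gastrocnemius of Rosa26 mice, a difference in the direction of Mmp9. In dNdK mice they summed to 219 to 274 scaled CPM in aorta and 122 to 271 scaled CPM in gastrocnemius. The part of macrophages in the Mmp9 level was not tested.

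Mmp3 encodes stromelysin-1, a secreted protease that also activates other proenzymes of the family. It was close to the floor, with 8 and 7 counts in aorta dNdK libraries, against 38, 19, 26 and 2 counts in aorta Rosa26 libraries. Gastrocnemius held 4, 4 and 16 counts in dNdK libraries, against 0, 10, 4 and 40 counts in Rosa26 libraries. In scaled CPM these were 0.737 and 0.528 in aorta dNdK against 2.80, 1.04, 1.81 and 0.427 in aorta Rosa26, and 0.778, 0.467 and 1.26 in gastrocnemius dNdK against 0, 1.11, 0.392 and 5.03 in gastrocnemius Rosa26. Gastrocnemius Rosa26 4 had the highest level of all libraries, and it also held the highest level of the collagen gene Col1a1 (579 scaled CPM, against 74.1 to 250.3 scaled CPM in the other 12) and of Mmp14. The groups overlapped in both tissues. In aorta the log2 fold change of dNdK over Rosa26 was −1.31 (SE 0.80, edgeR quasi-likelihood adjusted p = 0.757), and in gastrocnemius Mmp3 did not pass the filter on low counts. Aorta over gastrocnemius in Rosa26 mice gave a log2 fold change of −0.06 (SE 0.91, adjusted p = 0.960), and 1.52 without gastrocnemius Rosa26 4 (adjusted p = 0.162). The promoter printed above with matches to TATAAA and TGANTCA belongs to this gene, and whether these matches are used was not tested.

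Mmp11 encodes stromelysin-3, which furin activates inside the cell. It had 14 and 21 counts in aorta dNdK libraries, against 12, 30, 32 and 3 counts in aorta Rosa26 libraries, or 1.29 and 1.58 scaled CPM against 0.884, 1.65, 2.23 and 0.641 scaled CPM. In gastrocnemius it stood at 1.95, 1.40 and 1.42 scaled CPM in dNdK libraries, against 1.31, 0.889, 2.25 and 1.89 scaled CPM in Rosa26 libraries. The 4 groups overlapped throughout. Its log2 fold change of dNdK over Rosa26 was 0.04 (SE 0.65, adjusted p = 0.990) in aorta, and −0.0022 (SE 0.44, adjusted p = 0.9996) in gastrocnemius. Its counts were at most 32 in an aorta library.

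Mmp19 encodes a secreted metalloproteinase that cuts components of the basement membrane. Its levels were 53.9 and 42.1 scaled CPM in aorta dNdK libraries, against 55.2, 57.0, 44.4 and 51.9 scaled CPM in aorta Rosa26 libraries. Gastrocnemius held 7.20, 4.79 and 21.3 scaled CPM in dNdK libraries, against 3.36, 7.0, 5.0 and 5.54 scaled CPM in Rosa26 libraries. Every aorta library lay above every gastrocnemius library, and the highest gastrocnemius library was dNdK 3, the one with adipocyte RNA. Mmp19 averaged 52.1 ± 5.58 scaled CPM in aorta and 5.22 ± 1.5 scaled CPM in gastrocnemius of Rosa26 mice (SD, n = 4 each). The log2 fold change of aorta over gastrocnemius in Rosa26 mice was 3.30 (SE 0.25, edgeR quasi-likelihood adjusted p = 2.13e-06), and it passed the test under all 15 alternatives tried, at 3.13 to 4.17. In dNdK mice it was 2.10 (SE 0.62, adjusted p = 0.0655), and without gastrocnemius dNdK 3 it was 3.01 (adjusted p = 0.00504). The adjusted p of this dNdK comparison ran from 0.00142 to 0.280 over 12 alternatives, 5 of which passed.

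For Mmp19, dNdK over Rosa26 gave a log2 fold change of −0.12 (SE 0.23, adjusted p = 0.911) in aorta and 1.12 (SE 0.51, adjusted p = 0.656) in gastrocnemius. Without gastrocnemius dNdK 3 the gastrocnemius value was 0.19 (adjusted p = 0.985). The interaction of genotype and tissue was −1.21 (SE 0.61, adjusted p = 0.599). In the aorta libraries Mmp19 stayed within 42.1 to 57.0 scaled CPM, with the 3 libraries that held heart RNA at 42.1 to 57.0 scaled CPM and the other 3 at 44.4 to 53.9 scaled CPM. The summed adipocyte markers, at 11860 to 18610 scaled CPM in aorta and 568 to 1329 scaled CPM in 6 gastrocnemius libraries, differed between the tissues in the direction of Mmp19. The remaining library, gastrocnemius dNdK 3, held 10950 scaled CPM of these markers, near the lowest aorta sum. Its Mmp19 was at 21.3 scaled CPM, below the 42.1 to 57.0 scaled CPM of aorta. The part of adipocyte RNA in the tissue difference was not tested.

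**Figure D2:**
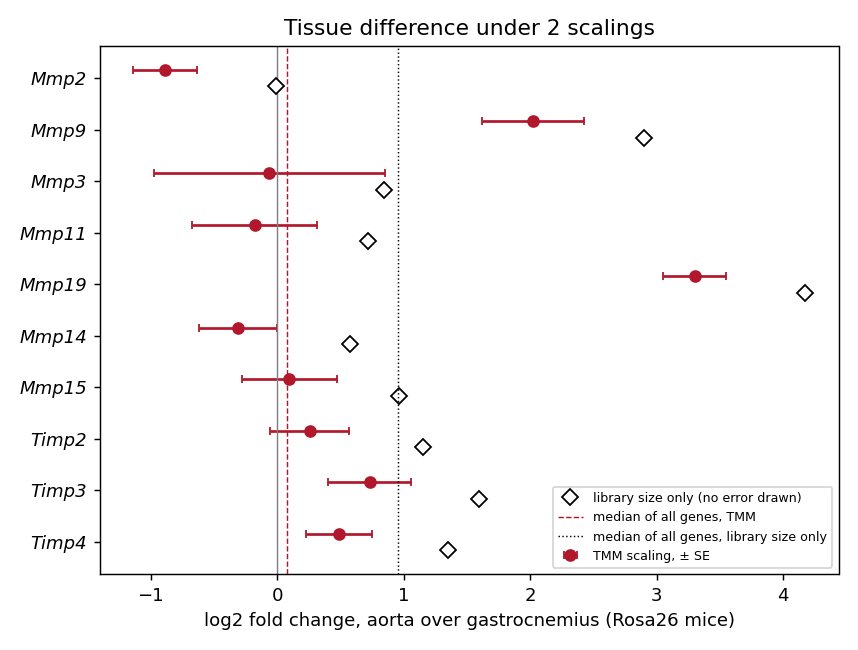
Log2 fold change of aorta over gastrocnemius in Rosa26 mice (4 libraries each) for the 10 genes; filled circles are the TMM-scaled fit with ± SE, open diamonds the fit scaled to library size only, and vertical lines the median of all genes under each scaling (0.08 and 0.96). Mmp19 and Mmp9 lie to the right of both medians, and Mmp2 lies to the left of both, at −0.89 under TMM and at −0.01 by library size.

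Mmp14 encodes MT1-MMP, the membrane-bound collagenase that activates the MMP2 proenzyme. It stood at 8.39 and 11.0 scaled CPM in aorta dNdK libraries, against 14.4, 13.6, 20.2 and 12.0 scaled CPM in aorta Rosa26 libraries. In gastrocnemius it stood at 17.9, 13.7 and 11.8 scaled CPM in dNdK libraries, against 11.2, 19.6, 15.5 and 28.6 scaled CPM in Rosa26 libraries. Both aorta dNdK libraries lay below all 4 aorta Rosa26 libraries, with 11.0 and 12.0 scaled CPM as the nearest values, whereas the gastrocnemius groups overlapped. It was the member, 1 of 10, whose aorta genotypes did not overlap, beside 17.4% of all genes tested in that comparison with 8.22% lower and 9.19% higher. The log2 fold change was −0.64 (SE 0.31) in aorta and −0.36 (SE 0.34) in gastrocnemius, with adjusted p of 0.757 and 0.839 by the edgeR quasi-likelihood test. In the 3 aorta libraries with little heart RNA (1 dNdK and 2 Rosa26) the value was −0.93 (adjusted p = 0.558). Both aorta dNdK libraries also lay below all 3 gastrocnemius dNdK libraries, at a log2 fold change of −0.56 (SE 0.34, adjusted p = 0.281). By library size alone it was 0.043, beside a median over all genes of 0.58 under that scaling and −0.01 under TMM.

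Mmp15 encodes MT2-MMP, a second membrane-bound member. Its levels were 47.5 and 73.1 scaled CPM in aorta dNdK libraries, against 73.2, 49.0, 165 and 125 scaled CPM in aorta Rosa26 libraries. Gastrocnemius held 132, 69.5 and 49.5 scaled CPM in dNdK libraries, against 133, 65.2, 73.1 and 116 scaled CPM in Rosa26 libraries. Within aorta Rosa26 alone the levels ran from 49.0 to 165 scaled CPM, and the genotypes overlapped in both tissues. For dNdK over Rosa26 the log2 fold change was −0.78 (SE 0.47, adjusted p = 0.757) in aorta and −0.18 (SE 0.37, adjusted p = 0.940) in gastrocnemius. The high aorta libraries, Rosa26 3 and Rosa26 4, also had the highest sums of 8 endothelial markers (1853 and 1512 scaled CPM, against 695 to 879 scaled CPM in the other 4 aorta libraries). In the 3 aorta libraries with little heart RNA the log2 fold change was −1.58 (adjusted p = 0.208).

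Timp2 encodes the inhibitor that takes part in the activation of MMP2. It stood at 122 and 126 scaled CPM in aorta dNdK libraries, against 227, 144, 295 and 118 scaled CPM in aorta Rosa26 libraries. In gastrocnemius it stood at 107, 144 and 119 scaled CPM in dNdK libraries, against 182, 204, 105 and 169.8 scaled CPM in Rosa26 libraries. The dNdK libraries lay in the lower range of the Rosa26 libraries in each tissue, and 1 Rosa26 library of each tissue lay below all dNdK libraries of that tissue. Its log2 fold change of dNdK over Rosa26 was −0.66 (SE 0.38, adjusted p = 0.757) in aorta and −0.40 (SE 0.25, adjusted p = 0.733) in gastrocnemius. Aorta over gastrocnemius in Rosa26 mice gave 0.26 (SE 0.31, adjusted p = 0.503).

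Timp3 encodes an inhibitor that stays bound to the matrix and also inhibits ADAM17 and several ADAMTS proteases. Its levels were 285 and 147 scaled CPM in aorta dNdK libraries, against 118, 122, 315 and 263 scaled CPM in aorta Rosa26 libraries. The aorta libraries fell into a low and a high set that cut across the genotypes. The 3 libraries with heart RNA stood at 118 to 147 scaled CPM and the other 3 at 263 to 315 scaled CPM, with no overlap. In aorta the log2 fold change of dNdK over Rosa26 was 0.08 (SE 0.47, adjusted p = 0.971), and 0.01 in the 3 libraries with little heart RNA (adjusted p = 0.995). In gastrocnemius Timp3 stood at 162, 169.7 and 226 scaled CPM in dNdK libraries, against 150.4, 106, 124 and 114 scaled CPM in Rosa26 libraries.

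All 3 gastrocnemius dNdK libraries lay above all 4 Rosa26 libraries for Timp3, with 162 and 150.4 scaled CPM as the nearest values. Timp3 was the member, 1 of 10, whose gastrocnemius genotypes did not overlap, beside 5.97% of all genes tested in that comparison with 2.75% higher and 3.21% lower. The log2 fold change was 0.61 (SE 0.21), higher in 3 of 3 dNdK libraries, with an adjusted p of 0.656 by the edgeR quasi-likelihood test. Without gastrocnemius dNdK 3 it was 0.43 (adjusted p = 0.973). Aorta over gastrocnemius in Rosa26 mice gave a log2 fold change of 0.73 (SE 0.33, adjusted p = 0.0769). Without the aorta Rosa26 libraries that held heart RNA it was 1.19, with an adjusted p of 0.00120, the lowest of 15 alternatives whose adjusted p ran up to 0.246.

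Timp4 encodes the inhibitor that is known for its presence in heart and fat. Its levels were 197 and 47.9 scaled CPM in aorta dNdK libraries, against 68.9, 58.6, 74.8 and 70.7 scaled CPM in aorta Rosa26 libraries. Gastrocnemius held 34.0, 78.3 and 264 scaled CPM in dNdK libraries, against 35.7, 56.2, 70.4 and 31.8 scaled CPM in Rosa26 libraries. In both tissues a dNdK library was the highest and the other dNdK libraries lay within or just outside the Rosa26 range. By genotype, the log2 fold change was 0.85 (SE 0.46, adjusted p = 0.757) in aorta and 1.39 (SE 0.59, adjusted p = 0.656) in gastrocnemius for dNdK over Rosa26 by the edgeR quasi-likelihood test. Without aorta dNdK 1 the aorta value was −0.53 (adjusted p = 0.994), and without gastrocnemius dNdK 3 the gastrocnemius value was 0.21 (adjusted p = 0.980).

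The high libraries of Timp4, aorta dNdK 1 and gastrocnemius dNdK 3, carry the same number in their deposited names, taken here to mark an animal. They also held the highest level in their tissue of Lep, the fat hormone leptin: 120 scaled CPM in aorta dNdK 1, against 25.3 to 82.9 scaled CPM in the other 5 aorta libraries, and 225 scaled CPM in gastrocnemius dNdK 3, against 0.584 to 18.8 scaled CPM in the other 6 gastrocnemius libraries. Of the other adipocyte markers, Fabp4 was also highest in aorta dNdK 1. Adipoq, Plin1, Cidec, Retn and Lpl were each higher in another aorta library. In gastrocnemius dNdK 3 every adipocyte marker was at its highest for that tissue. Gastrocnemius dNdK 3 also stood outside the other 6 gastrocnemius libraries in Mmp19 (21.3, against 3.36 to 7.20 scaled CPM), Timp3 (226, against 106 to 169.7), Mmp9 (6.07, against 1.12 to 4.67) and Mmp15 (49.5, against 65.2 to 133). With Timp4 these were 5 of the 10 members, 4 above and 1 below, beside 39% of 12318 genes (22.1% above and 16.9% below). Among aorta libraries Timp4 stood at 47.9 to 68.9 scaled CPM in the 3 with heart RNA and at 70.7 to 197 scaled CPM in the other 3, so these sets did not overlap either. For the 8 members other than Timp3 and Timp4 those sets overlapped, and sets without overlap were seen for 18.1% of 12318 genes, with 8.38% lower and 9.69% higher in the libraries with heart RNA. The part of fat and heart RNA in the levels of Timp3 and Timp4 was not tested.

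**Figure D3:**
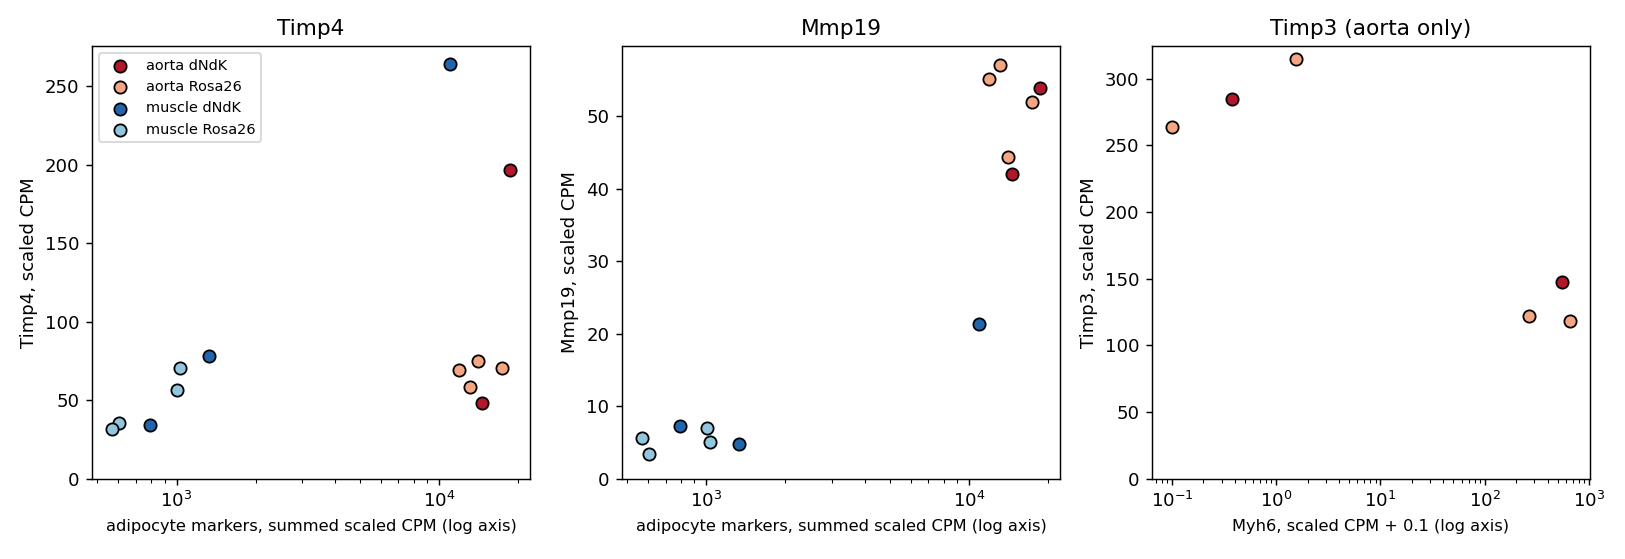
Timp4 and Mmp19 against the summed level of 7 adipocyte markers in all 13 libraries, and Timp3 against Myh6 in the 6 aorta libraries (scaled CPM; log horizontal axes, linear vertical axes; points are libraries, coloured by group). Gastrocnemius dNdK 3 lies far from the other gastrocnemius libraries in the first and second panels, and in the third the 3 aorta libraries with Myh6 at 268 or more lie at 118 to 147 of Timp3.

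By the edgeR quasi-likelihood test, 0 of the 10 members passed for dNdK against Rosa26 in aorta at an adjusted p under 0.05, beside 0.00839% of all 11920 genes tested (1 gene). Without adjustment 0 members had a p under 0.05, beside 5.98% of all genes, and DESeq2 called 0 members. The estimates were higher in 4 members and lower in 6, with a median log2 fold change of −0.38, beside −0.05 over all genes. In gastrocnemius 9 members could be tested and 0 passed, beside 0% of 10491 genes; DESeq2 also called 0. Unadjusted p fell under 0.05 for 2 members, Timp3 and Timp4, both with higher estimates, beside 7.55% of all genes. There 4 estimates were higher and 5 lower, with a median of −0.0022, beside 0.03 over all genes. For the difference of the genotype effect between the tissues, 0 of 10 members passed, beside 0% of 12318 genes, 0 had an unadjusted p under 0.05, beside 8.48%, and DESeq2 called 0.

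**Figure D4:**
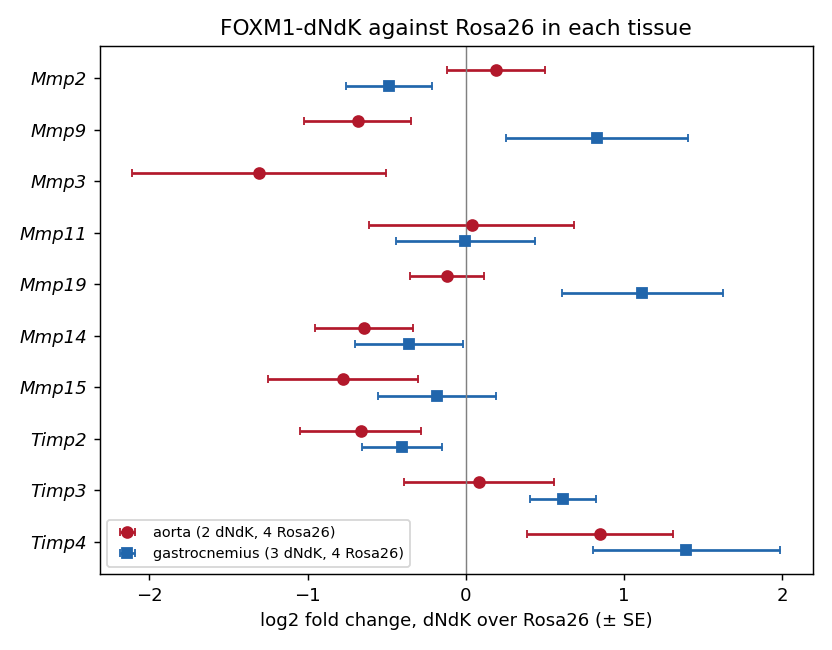
Log2 fold change of dNdK over Rosa26 for the 10 genes in aorta (circles, 2 and 4 libraries) and in gastrocnemius (squares, 3 and 4 libraries), with ± SE from the edgeR fits; Mmp3 has no gastrocnemius value because it did not pass the filter on low counts. Timp4 has the highest estimate in both tissues (0.85 and 1.39), and no adjusted p was under 0.05.

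Between aorta and gastrocnemius of Rosa26 mice, 3 of the 10 members passed the edgeR quasi-likelihood test, Mmp9 and Mmp19 higher and Mmp2 lower in aorta. The share of all 11058 genes that passed was 58.4%, with 31% higher and 27.5% lower, so a call is common between these tissues and the members' share was not above it. Without adjustment 4 members had a p under 0.05, beside 62.5% of all genes. The groups of the same 3 members did not overlap, beside 52.8% of all genes (26.9% higher and 25.9% lower). Mmp9 and Mmp19 passed under all 15 alternatives, and Mmp2 under 14. Scaled to library size alone, 6 members passed, all higher in aorta: Mmp9, Mmp19, Mmp15 (0.97), Timp2 (1.15), Timp3 (1.59) and Timp4 (1.35). Under that scaling, with its median of 0.96 over all genes, 82.8% of calls were higher, against 53%. By library size and by TMM, Mmp9 stood at 2.90 and 2.02 and Mmp19 at 4.17 and 3.30, above the median of all genes under each. None of the 10 members changed its side of that median. Library size alone moves all genes nearly alike, so this was close to fixed in advance and is no check of the scaling.

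In dNdK mice 9 members were tested between aorta and gastrocnemius and 0 passed, beside 15.8% of 11426 genes. Mmp19 alone had an unadjusted p under 0.05, beside 35% of all genes, and DESeq2 called Mmp19 (adjusted p = 0.00959). A fit over all 13 libraries took the number in the deposited names as a block. Its dNdK contrast rested on aorta dNdK 1 and gastrocnemius dNdK 3 alone. The spread came from the Rosa26 pairs, so its calls for dNdK mice are not given. The groups did not overlap for 2 members, Mmp19 higher and Mmp14 lower in aorta, beside 57.9% of all genes (28.5% higher and 29.4% lower).

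Beyond the 10 members, 17 other genes of the family and its inhibitors were in the tables, and Timp1 was not found in them under that symbol. No count was seen for 5 of them (Mmp1a, Mmp1b, Mmp7, Mmp10 and Mmp20), and 7 were above 3 counts in no library. Above that floor in all 13 libraries were 3: Mmp23, Mmp28 and Reck, a membrane-anchored inhibitor. Mmp28, whose product is epilysin, averaged 23.2 scaled CPM in aorta and 4.36 scaled CPM in gastrocnemius of Rosa26 mice, a log2 fold change of 2.40 (SE 0.31, adjusted p = 9.44e-05). Mmp23, named after its values were seen, also passed there at 2.57 (SE 0.56, adjusted p = 0.00260), and in dNdK mice at 2.05 (SE 0.43, adjusted p = 0.0284). It lay at 12.8 to 28.5 scaled CPM in aorta libraries and 0.588 to 7.33 scaled CPM in gastrocnemius libraries.

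Of the ADAM and ADAMTS proteases, relatives that TIMP3 inhibits in part, 18 were tested between aorta and gastrocnemius of Rosa26 mice: 7 passed as higher and 1 as lower in aorta, and 16 and 1 did by library size alone. Beside this and the counts that follow stand the 58.4% of all genes that passed, with 31% higher and 27.5% lower, and the shift of the median of all genes by library size given above. Adamts9 was higher by 2.91 (SE 0.46) on the log2 scale, Adam15 by 1.71 (SE 0.32) and Adamts2, the procollagen N-proteinase, by 1.06 (SE 0.28). Of 6 genes of the plasminogen system, 2 passed as higher and 1 as lower (3 and 1 by library size). Plat, tissue plasminogen activator, was higher by 1.17 (SE 0.29), while Serpine2, an inhibitor of serine proteases, was lower at −2.94 (SE 0.33) and also lower in dNdK mice at −2.03 (SE 0.34). Of 12 partners of the enzymes, 8 passed as higher and 2 as lower (8 and 1 by library size). Kdr, the VEGF receptor of endothelium, was higher in aorta by 2.57 (SE 0.33), Cldn5, a claudin of endothelial junctions, by 1.87 (SE 0.35) and Cav1, caveolin, by 1.62 (SE 0.36).

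Itgav, an integrin chain, was lower at −1.42 (SE 0.18) in the same comparison, and Bsg, which encodes the MMP inducer basigin, at −0.48 (SE 0.18). By library size alone Bsg was at 0.40, and relative to the median of all genes it was at −0.56 under both scalings. The sums of 8 endothelial markers, which include Kdr, were 695 to 1853 scaled CPM in aorta and 309 to 404 scaled CPM in gastrocnemius of Rosa26 mice, and their part in these differences was not tested. Of 20 substrates, 5 passed as higher and 0 as lower in aorta (11 and 0 by library size), a smaller share than the 58.4% of all genes. Estimates of the substrates were higher for 10 and lower for 10, and for 19 and 1 by library size. Among those that passed were Lamb1, a laminin chain (1.55, SE 0.26), Sparc, a collagen-binding protein (1.38, SE 0.33), and Eln, elastin (1.37, SE 0.33). Of 13 regulators of Mmp transcription, 2 passed as higher and 5 as lower, and 5 and 4 did by library size. Ets1, a transcription factor, was higher by 1.81 (SE 0.22) and Tgfb1, a growth factor, by 1.62 (SE 0.26). Lower were Tgfb2 (−2.77, SE 0.22) and the AP-1 genes Fos (−3.16, SE 0.36) and Jun (−1.85, SE 0.24). In dNdK mice Tgfb2 (−3.07), Fos (−3.87), Jun (−1.63) and, at 1.13 with an adjusted p of 0.0270, Kdr passed as well as Serpine2, while the other genes of these lists named here did not, beside 15.8% of all genes. The genes named from these lists other than Bsg kept their direction in Rosa26 mice when scaled to library size alone.

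For dNdK against Rosa26 none of these lists held a gene that passed, in aorta or in gastrocnemius. In aorta the estimates were lower for 18 of 20 ADAM and ADAMTS genes (median −0.64), 13 of 13 partners (−0.51), 14 of 16 regulators (−0.42), 15 of 20 substrates (−0.22), 5 of 7 genes of the plasminogen system (−0.77) and 3 of 5 other Mmp genes and inhibitors (−0.34). The median over all genes was −0.05. Macrophage markers summed to 219 to 274 scaled CPM in aorta dNdK and 277 to 550 scaled CPM in aorta Rosa26. The 5 mast cell markers summed to 40.4 to 40.7 scaled CPM in aorta dNdK and 54.0 to 103 scaled CPM in aorta Rosa26. Both sums were lower in dNdK without overlap, beside 17.4% of all genes without overlap there (8.22% lower). The nearest macrophage sums were 274 and 277 scaled CPM. Of the macrophage markers, Cd68, Mrc1, Lyz2 and C1qb were each lower without overlap. Adgre1, Csf1r and Cd163 overlapped, and C1qa was near 0. The 6 brown fat markers summed to 14140 to 14270 scaled CPM in aorta dNdK and 10560 to 14010 scaled CPM in aorta Rosa26. That sum was higher in dNdK without overlap. The mast cell marker Kit was higher in dNdK, at 24.4 and 20.15 scaled CPM, against 8.94 to 18.5 scaled CPM. The part of these cells in the aorta medians was not tested. In gastrocnemius the medians were 0.26 for 14 ADAM and ADAMTS genes, 0.10 for 11 partners, 0.04 for 14 regulators, −0.10 for 20 substrates, −0.01 for 6 genes of the plasminogen system and 0.18 for 3 other Mmp genes and inhibitors, beside 0.03 over all genes.

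Likeness of pattern was described by the Pearson correlation of log2 CPM over the 13 libraries after the mean of each library's own group was subtracted, over about 7673 genes with a mean log2 CPM of at least 3. It is given as a description with no p, since libraries share depth, make-up and in part an animal. Only the 3 highest values per member are given, so high values follow in part from that choice. A single library far from its group can also set such a value. For Mmp19 the most alike genes were Cd14 (0.96), Cgnl1 (0.96) and Car13 (0.95). For Timp4 they were Apol6 (0.94), Sncg (0.93) and Slc25a51 (0.92), and for Timp3 Slc4a4 (0.95), Prickle1 (0.95) and Il15ra (0.93). For Mmp15 they were Fez2 (0.96), Esf1 (0.96) and Nrbp1 (0.96), for Mmp9 Pds5a (0.92), Arpc3 (0.92) and Dcakd (0.90), and for Mmp2 Bub3 (0.92), Tor1aip2 (0.91) and Cul3 (0.91). For Mmp14 they were Pknox1 (0.91), Crip1 (0.88) and Vezf1 (0.86), for Timp2 Fbxo25 (0.91), Csf1 (0.90) and Rbms3 (0.90), for Mmp3 Ccdc93 (0.88), Dab2 (0.86) and Hmces (0.86), and for Mmp11 Ncapd3 (0.85), Usp33 (0.85) and Plagl2 (0.81).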

How the data were processed

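Each deposited table holds raw read counts per gene of 1 library, which the authors made with STAR 2.5.2b on mm10 (GRCm38.p6), per the submitters' processing notes, which also name edgeR 3.28.1 and limma 3.42.2. Counts summed over both strands were used, since 46.3% to 49.3% of stranded counts fell on the first strand. Lines that name no gene (8.58% to 13.3% of each table) were left out. In R 4.3.3, edgeR 4.0.16 (filterByExpr with min.count 10 and min.total.count 15, TMM, quasi-likelihood test) was run for each comparison on its own libraries, and on all 13 for the difference between tissues. P-values were adjusted by Benjamini-Hochberg over all genes tested, with a threshold of 0.05, and the SE was derived from the test.

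The labels do not say that libraries of a group come from separate animals, so p-values measure the spread between libraries. Reads carry no molecular identifiers, so the limit of 3 counts covers counting error only. The members and gene lists were chosen with earlier results of these data known. All 10 members are named, and from each list up to 3 genes per direction that passed, with the smallest p and a log2 CPM averaging 3 or more. Alternatives were RLE scaling, no filter, DESeq2 1.42.0, leaving out each library or the 3 aorta libraries with Myh6 above 100 CPM, a joint fit, and blocks. Scaling by library size alone was added after seeing the data. Numbers in the deposited names, shared by 4 pairs of libraries across tissues, were taken to mark an animal. Over 7674 genes the pairs' deviations from group means correlated at 0.160 to 0.369. Aorta Rosa26 2 and gastrocnemius Rosa26 2, which share no such number, correlated at 0.260, so these values do not establish the pairing. The pipeline was tested on simulated data.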

Additional observations from a re-analysis of the deposited data

How the results depend on the processing

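Of 675 values of single members under alternatives, 592 kept direction and side of the threshold, 69 changed sign, 13 passed where the reported value did not and 1 no longer passed (Mmp2, above); the causes were not tested. The count of genes passing for dNdK against Rosa26 in aorta (1) was 13 by DESeq2, 0 in a joint fit of all 13 libraries, 30 without the libraries with heart RNA and 0 to 1 leaving out a library, with 0 without dNdK 1, Rosa26 1 or Rosa26 2. In gastrocnemius (0) it was 7 by DESeq2 and 0 to 3 leaving out a library, with 3 without dNdK 1. For the difference between tissues (0) DESeq2 gave 6. For aorta against gastrocnemius in dNdK mice (1801) it was 3141 by DESeq2, 369 without the library with heart RNA and 322 to 3126 leaving out a library: 322 without aorta dNdK 1, 369 without aorta dNdK 2, 690 without gastrocnemius dNdK 2 and 3126 without gastrocnemius dNdK 3. There 1 member (Mmp19) passed with no filter, by DESeq2, by library size alone and without gastrocnemius dNdK 3, so leaving out a library gave 0 to 1. By library size alone 6 members passed between the tissues in Rosa26 mice, and 68.4% of calls in dNdK mice were higher, against 33.1%.

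The title numbers were not taken to mark an animal. Libraries that shared a title number correlated at −0.391 to 0.295 across tissues and −0.523 to 0.387 within. The highest across tissues, aorta Rosa26 4 and gastrocnemius Rosa26 4, also shared the number in the deposited names. With the title numbers as a replicate block, 163 genes passed in aorta, 0 in gastrocnemius, 5879 for the tissues in Rosa26 mice and 3035 in dNdK mice, with 1 member (Mmp19). Paired by animal the last count was 1021, and it was 6382 in Rosa26 mice with the same 3 members passing. Signs turned under the block of title numbers for Mmp11 in gastrocnemius (0.16), for Mmp3 (0.60) and Mmp15 (−0.0039) between tissues in Rosa26 mice and for Timp4 in dNdK mice (0.90). By animal they turned for Mmp3 between tissues in Rosa26 mice (1.00) and, in that single pair of dNdK libraries, for Mmp9 (−0.31).

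Library size alone moved the median of all genes from TMM values of −0.05 to −0.18 in aorta, 0.03 to 0.15 in gastrocnemius, 0.08 to 0.96 between tissues in Rosa26 mice, −0.01 to 0.58 in dNdK mice and −0.10 to −0.39 for the difference. Relative to that median 0 of 48 member values changed side, which was close to fixed in advance because the scaling moves all genes nearly alike. Against 0, 12 of the 48 values changed sign. Relative to 0, signs turned with it for Mmp11 (−0.13) and Timp3 (−0.038) in aorta, Mmp11 in gastrocnemius (0.11), Mmp3 (0.84), Mmp11 (0.72) and Mmp14 (0.58) between tissues in Rosa26 mice, Mmp2 (0.41), Mmp11 (0.47), Mmp14 (0.043), Mmp15 (0.17) and Timp4 (0.47) in dNdK mice, and Mmp11 for the difference (−0.24). In dNdK mice Timp4 was at 0.010 with RLE and 0.012 with DESeq2, and Timp2 at −0.018 with no filter. Without the libraries with heart RNA, Mmp11 (−0.22) and Mmp19 (0.20) turned in aorta, and Timp2 (−0.014) and Timp4 (0.65) between tissues in dNdK mice.

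Leaving out each library, values that changed sign ran from −0.16 to 0.39 (Mmp11), −0.33 to 0.066 (Mmp19), −0.49 to 0.50 (Timp3) and −0.53 to 1.55 (Timp4) in aorta, and from −0.21 to 0.23 (Mmp11) and −0.69 to 0.073 (Mmp15) in gastrocnemius. Between tissues in Rosa26 mice they ran from −0.50 to 1.52 (Mmp3), −0.52 to 0.041 (Mmp11), −0.24 to 0.33 (Mmp15) and −0.022 to 0.40 (Timp2). In dNdK mice they ran from −0.33 to 0.13 (Mmp2), −0.29 to 0.044 (Mmp11), −0.82 to 0.034 (Mmp15), −0.070 to 0.14 (Timp2), −0.33 to 0.62 (Timp3) and −1.39 to 1.12 (Timp4). For the difference they ran from −1.96 to 0.15 (Mmp3), −0.16 to 0.40 (Mmp11), −0.41 to 0.031 (Timp2) and −1.88 to 0.65 (Timp4). Mmp3 had 0 to 40 counts in a library and was too low for the filter in 2 comparisons, and 2 libraries of aorta dNdK limit every comparison that uses them. Where 1 library was left in a group, its spread was taken from the other groups.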
